A study of Mus musculus with 4 samples.

Results

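The interferon-induced genes and RNA sensors described here are 31 listed genes, taken by name from the 45232 gene rows of the count tables. All 31 had a row and all 31 passed the filter on low counts, among 15320 genes tested. They were measured in sorted mouse LSK cells, which lack lineage markers, carry Kit and Sca-1, and include the blood stem cells and early progenitors. The cells were GFP-positive and came from mice that had been given long-term haematopoietic stem cells 3 months earlier. The donor cells bore a scrambled control (Scr, 2 mice) or a miR-99 knockdown (miR-99 KD, 2 mice), with 2 libraries per group. Both groups share the transplantation and the GFP label, and the strain, age and conditioning of the mice are not given in the labels. Nothing in the labels says that the 2 libraries of a group came from separate cultures or cell preparations, so p-values measure the spread between these libraries. The question asked of these genes is whether their RNA in the engrafted cells differs between the groups. Knockdown of the mature microRNA is not read by libraries of this kind.

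Type I interferons bind the receptor chains Ifnar1 and Ifnar2, whose kinases Jak1 and Tyk2 activate Stat2. Stat2 and Irf9 are parts of a complex that binds the interferon-stimulated response element in promoters and switches on antiviral genes. RIG-I, encoded by Ddx58, and MDA5, encoded by Ifih1, detect double-stranded RNA in the cytosol and pass the signal to the adaptor Mavs, which leads to interferon production. In blood stem cells interferons are known to bring quiescent cells into cycle, and stem cells are known to keep a basal level of many interferon-induced genes.

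The mature microRNAs of the miR-99 family are shown because the titles name a miR-99 knockdown. The titles do not say which members of the family it was aimed at. Totals pasted below the gene rows of the knockdown libraries carry the name Zip99a. The sequences are RefSeq's, given for build GRCm38.p6, with the seed, bases 2 to 8, in capitals.
mmu-miR-100-5p: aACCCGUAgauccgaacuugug
mmu-miR-99a-5p: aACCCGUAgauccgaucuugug
mmu-miR-99b-5p: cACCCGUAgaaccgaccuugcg
All 3 share the seed ACCCGUA, whose 7-base match in a target is TACGGGT. None of the 31 genes held that match in an annotated 3′ untranslated region of GENCODE M21, against 1.40% of 20834 genes. None held ACGGGT, the match to bases 2 to 7, either, against 7.06% of those genes. No match says only that these letters are not in the annotated regions.

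Gene counts per library ran from 27295197 to 32350590. Levels are given as CPM, normalised read counts scaled to a common library size by the TMM method. Differences are fitted log2 ratios of miR-99 KD to Scr. Of the sort markers, Kit stood at 1149 and 1280 CPM in Scr and at 670 and 774 CPM in the knockdown, with adjusted p = 0.00029 by DESeq2 and 0.213 by edgeR. Ly6a, which encodes Sca-1, had 46.5 and 22.8 CPM against 12.4 and 22.3 CPM, and neither tool called it. Marker lists of other cells differed by library. The 12 macrophage and monocyte markers, all detected, summed to 612 and 270 CPM in Scr 1 and 2 and to 780 and 441 CPM in miR-99 KD 1 and 2. The 12 neutrophil markers, all detected, summed to 8324 and 6191 CPM and to 29330 and 5256 CPM, in the same order. The 10 T and NK cell markers, of which 4 passed the filter and Ncr1 and Gzma had 0 counts, summed to 222 and 229 CPM and to 166 and 126 CPM. Most of that was Nkg7, at 207 and 194 CPM in Scr and at 146 and 114 CPM in the knockdown, with adjusted p = 0.032 by DESeq2 and 0.233 by edgeR. Cd3e, Cd3d and Cd3g went another way: they were highest in miR-99 KD 1, and no higher than 1.44 CPM in any library. Lck was lower in both miR-99 KD libraries, at 12.2 and 10.69 CPM against 12.91 and 32.65 CPM in Scr. Its Scr libraries lay far apart, and neither tool called it. In bulk RNA, fewer cells of a type and less RNA per cell cannot be told apart.

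**Figure D1:**
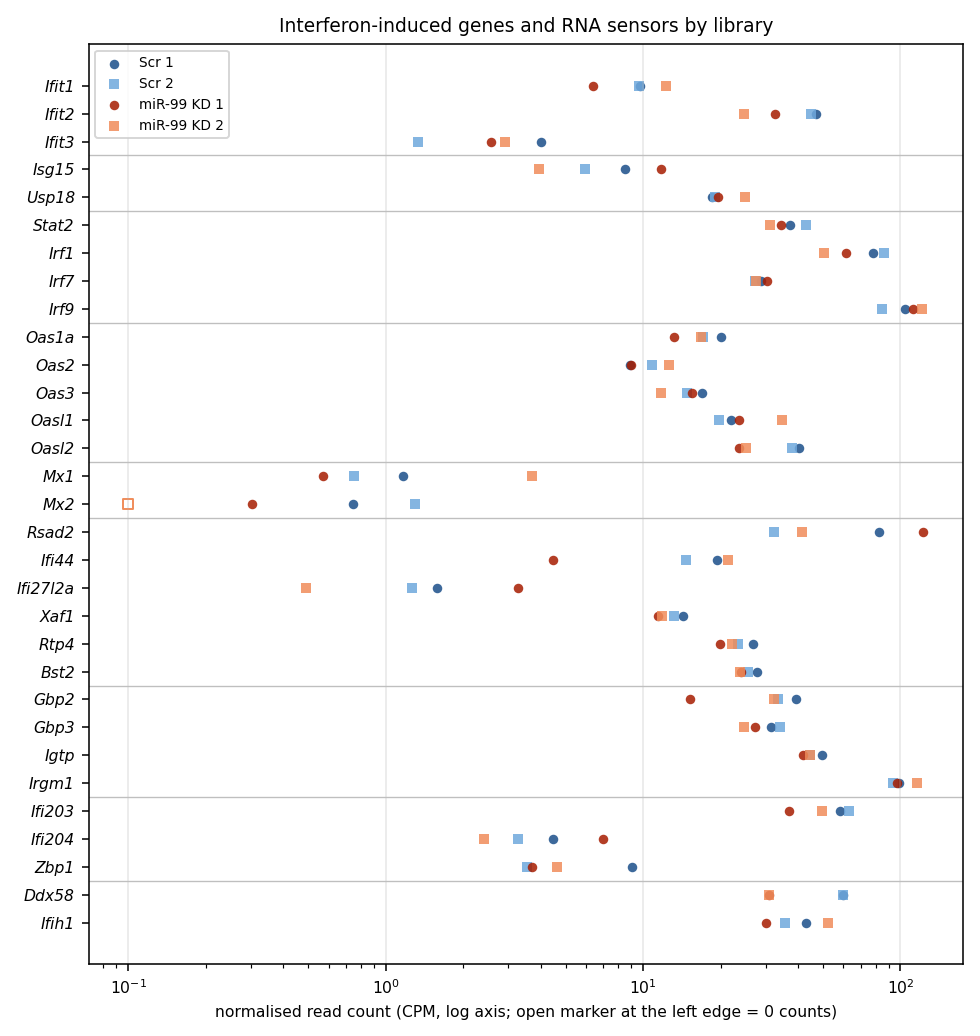
Normalised read count (CPM, log axis) of each of the 31 genes in each of the 4 libraries, in order of role, with grey lines between roles. The Ddx58 values lie near 60 CPM in both Scr libraries and near 31 CPM in both miR-99 KD libraries, whereas Rsad2, Isg15 and Ifi44 are spread widely within a group.

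No member passed the main test, the edgeR quasi-likelihood test, after Benjamini-Hochberg adjustment over all 15320 genes, which also called 0% of all genes. At an unadjusted p under 0.05 edgeR counted 4 of the 31 genes, all lower in miR-99 KD: Ddx58, Oasl2, Ifit2 and Irf1. That is 12.9% of the members, against 15.6% of all genes tested in either direction, 9.63% in the lower and 5.97% in the higher direction. DESeq2 called 2 of the 30 members to which it gave an adjusted p, or 6.67%, against 6.85% of all genes, and both were lower: Ddx58 and Oasl2. It called 4.89% of all genes lower and 1.96% higher. By these counts the share of members that differed was near that of all genes.

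Both miR-99 KD libraries lay below both Scr libraries in 13 of the 31 genes, or 41.9%, where the share of all genes was 26.0%. They lay above in 3 genes, Usp18, Irf9 and Oasl1, or 9.68%, where the share of all genes was 24.5%. The remaining 15 overlapped. With library totals alone in place of TMM the split was 15 lower and 1 higher, against 31.9% and 18.0% of all genes. Without Scr 1 the numbers lower and higher were 14 and 7, against 36.9% and 34.9% of all genes, and without Scr 2 they were 17 and 4, against 37.5% and 30.7%. Without miR-99 KD 1 they were 19 and 9, against 41.3% and 39.7%, and without miR-99 KD 2 they were 18 and 8, against 38.9% and 37.8%. The median log2 difference over the members was -0.16, against 0.02 over all genes tested, and the differences ran from -2.72 for Mx2 to 1.14 for Mx1. The median size of a difference, without its sign, was 0.30 over the members and 0.33 over all genes. Beside the lower counts stood the 11 stem cell markers, of which 8 lay below both Scr libraries in both miR-99 KD libraries, and the 10 erythroid markers, of which 7 lay above. Summed, the stem cell markers were at 1989 and 1995 CPM in Scr and at 936 and 1160 CPM in the knockdown, and the erythroid markers at 9271 and 8656 CPM and at 13220 and 15150 CPM. Kit made up most of the stem cell sum, and Car1 and Car2 most of the erythroid sum. Of the stem cell markers Hoxb5 lay above, and Slamf1 and Mllt3 overlapped. Of the erythroid markers Alas2, Hba-a1 and Hbb-bt overlapped. The part of the stem cell and erythroid markers in the interferon genes was not tested.

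**Figure D2:**
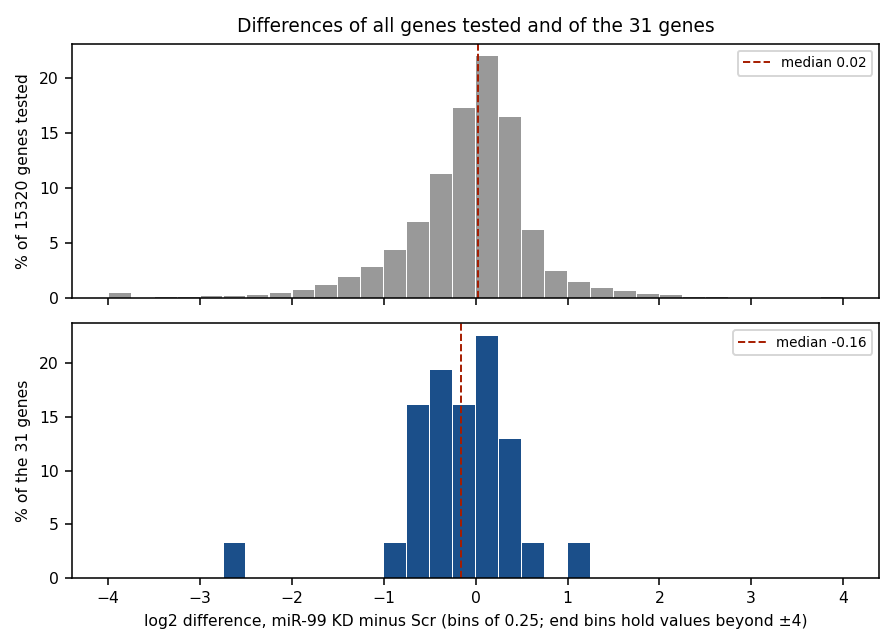
Share of genes (%) by log2 difference between miR-99 KD and Scr in bins of 0.25, for all 15320 genes tested (top) and for the 31 genes (bottom), with each median as a dashed line. The 31 genes have a median of -0.16 and all genes one of 0.02, and the largest difference in size among the 31 is that of Mx2, at -2.72.

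Of the cytosolic RNA sensors, DESeq2 called 1 of 2, where it called 6.85% of all genes, and 2 genes are too few to compare with that share. Ddx58 (ENSMUSG00000040296), which encodes RIG-I, stood at 59.7 and 59.8 CPM in the Scr libraries and at 30.7 and 30.9 CPM in the miR-99 KD libraries. The libraries of each group were nearly equal and the groups were far apart. This gave a log2 difference of -0.95 ± 0.15 (SE, n = 2 each), with adjusted p = 5.3e-05 by DESeq2 and 0.197 by edgeR. The log2 difference stayed between -0.98 and -0.95 when any single library was left out. DESeq2 called it without either miR-99 KD library, but neither tool called it without Scr 1 or without Scr 2. Ifih1 (ENSMUSG00000026896), which encodes MDA5, stood at 42.9 and 35.7 CPM in Scr and at 29.9 and 52.2 CPM in the knockdown. Its miR-99 KD libraries lay on either side of the Scr pair, and the log2 difference was 0.06 ± 0.30 (SE, n = 2 each). Whether the differences of Ddx58 and Ifih1 differ from each other was not tested.

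Promoters of both sensors are shown because they carry the same kind of element, while DESeq2 called Ddx58 and not Ifih1. The RefSeq windows on build GRCm38.p6 run from 250 bases before to 50 after the annotated start. Isg15 is added as a classical interferon target and Irf1 as a gene with the Stat-type element. Irf1 has another window, not shown, that held neither kind of element. Capitals mark GAAANNGAAA, the core of the interferon-stimulated response element, and TTCNNNGAA, the palindrome bound by Stat dimers, searched on both strands. Overlapping matches run together. The match begins 2 bases after the annotated start in Ddx58 and 32 bases after it in Ifih1.
Ddx58 (chr4:40239776-40240075, minus strand): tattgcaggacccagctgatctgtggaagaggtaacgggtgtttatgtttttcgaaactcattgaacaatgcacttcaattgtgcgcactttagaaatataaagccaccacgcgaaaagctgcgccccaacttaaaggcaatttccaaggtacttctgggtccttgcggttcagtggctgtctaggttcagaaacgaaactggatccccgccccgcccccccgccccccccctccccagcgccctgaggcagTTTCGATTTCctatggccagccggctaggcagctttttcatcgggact
Ifih1 (chr2:62646206-62646505, minus strand): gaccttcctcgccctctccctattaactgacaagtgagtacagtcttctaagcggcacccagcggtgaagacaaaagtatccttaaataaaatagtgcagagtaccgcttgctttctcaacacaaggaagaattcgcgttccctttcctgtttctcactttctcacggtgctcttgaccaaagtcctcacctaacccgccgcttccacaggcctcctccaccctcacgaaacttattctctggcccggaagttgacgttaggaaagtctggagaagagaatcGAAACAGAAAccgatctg
Isg15 (chr4:156200769-156201068, minus strand): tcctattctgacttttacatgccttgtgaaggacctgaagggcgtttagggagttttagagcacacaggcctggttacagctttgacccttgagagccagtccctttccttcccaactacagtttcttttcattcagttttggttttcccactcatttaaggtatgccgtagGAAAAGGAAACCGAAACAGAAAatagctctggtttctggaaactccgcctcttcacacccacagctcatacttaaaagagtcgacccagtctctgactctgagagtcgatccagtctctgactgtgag
Irf1 (chr11:53769764-53770063, plus strand): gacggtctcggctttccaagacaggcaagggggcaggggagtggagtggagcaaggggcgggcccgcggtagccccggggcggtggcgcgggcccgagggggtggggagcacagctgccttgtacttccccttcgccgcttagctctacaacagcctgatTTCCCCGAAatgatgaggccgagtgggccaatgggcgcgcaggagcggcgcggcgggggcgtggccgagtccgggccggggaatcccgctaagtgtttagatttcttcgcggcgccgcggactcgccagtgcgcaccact
Of the 31 genes, 23 had a promoter in the table. A gene with several windows was counted if any of them held the match. The GAAANNGAAA core was found in 15 of the 23, or 65.2%, against 3.99% of 27025 genes with a promoter. TTCNNNGAA was found in 5 of the 23, which were Ifit2, Irf1, Oas1a, Bst2 and Igtp, against 9.55% of the 27025 genes. Of the 15 genes with the GAAANNGAAA core, 7 lay lower in both miR-99 KD libraries, 0 lay higher and 8 overlapped. Of the 8 without it, 4 were lower, 2 were higher and 2 overlapped. Of the 5 with TTCNNNGAA, 4 were lower and 1 overlapped, and of the 18 without it, 7 were lower, 2 were higher and 9 overlapped. Of all genes tested, 26.0% were lower and 24.5% higher in this sense. A match is a description of the letters and not a bound site, and members with and without it were found on the lower side.

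Among the transcription factors, the parts of the interferon-activated complex lay on different sides, and neither tool called any of the 4 factors over all libraries. Stat2 stood at 37.1 and 42.9 CPM in Scr and at 34.3 and 31.2 CPM in the knockdown, with a log2 difference of -0.29 ± 0.18 (SE, n = 2 each). Irf9, its DNA-binding partner, stood at 104 and 84.6 CPM in Scr and at 112 and 121 CPM in the knockdown. Its groups did not overlap, and the log2 difference was 0.30 ± 0.16 (SE, n = 2 each). Irf1, a factor induced by interferon gamma, stood at 78.4 and 86.1 CPM in Scr and at 61.6 and 50.5 CPM in the knockdown. The fitted log2 difference was -0.55 ± 0.17 (SE, n = 2 each), with adjusted p = 0.255 by edgeR and 0.087 by DESeq2. Irf7, the factor that amplifies interferon production, was between 27.3 and 30.3 CPM in all 4 libraries.

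The oligoadenylate synthetases sense double-stranded RNA and make oligoadenylate, an antiviral messenger; the related Oasl2 has that activity and Oasl1 lacks it. Oasl2 (ENSMUSG00000029561) stood at 40.2 and 37.9 CPM in Scr and at 23.6 and 25.0 CPM in the knockdown. The log2 difference was -0.68 ± 0.17 (SE, n = 2 each), with adjusted p = 0.026 by DESeq2 and 0.227 by edgeR. DESeq2 lost the call with the replicate block and without each library in turn. Oasl1, known as a repressor of Irf7 translation, lay on the other side, at 22.0 and 19.7 CPM in Scr and at 23.6 and 34.6 CPM in the knockdown. This gave a log2 difference of 0.48 ± 0.25 (SE, n = 2 each), and miR-99 KD 1 lay only a little above the Scr libraries. Oas1a was lower in both miR-99 KD libraries, at 13.2 and 16.8 CPM against 20.1 and 17.0 in Scr, by a margin that is small in miR-99 KD 2. Oas2, between 8.88 and 12.6 CPM, and Oas3, between 11.7 and 16.9 CPM, overlapped. Oas1a has close copies in the mouse genome, so its reads may be split or set aside in counting.

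The IFIT proteins bind foreign RNA at ribosomes. Ifit2 (ENSMUSG00000045932) stood at 47.1 and 44.8 CPM in Scr and at 32.4 and 24.6 CPM in the knockdown. The fitted log2 difference was -0.69 ± 0.20 (SE, n = 2 each), with adjusted p = 0.251 by edgeR and 0.071 by DESeq2. Neither tool called it over all 4 libraries, and both called it without miR-99 KD 1. Ifit1 stood at 9.71 and 9.61 CPM in Scr, and its miR-99 KD libraries, at 6.41 and 12.3 CPM, lay on either side. Ifit3 was rarer, between 1.34 and 4.0 CPM, with the lowest and the highest value in Scr, and it has a near-identical neighbour, Ifit3b.

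Isg15 is a ubiquitin-like protein that is attached to other proteins, and Usp18 removes it and dampens receptor signalling. Isg15 stood at 8.49 and 5.94 CPM in Scr and at 11.7 and 3.95 CPM in the knockdown. The highest and the lowest library were both miR-99 KD. Usp18 stood at 18.5 and 18.9 CPM in Scr and at 19.5 and 24.9 CPM in the knockdown, which puts it among the 3 genes that were higher in both. Its log2 difference of 0.24 ± 0.22 (SE, n = 2 each) was about as large as its error.

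The Mx GTPases, which trap viral particles, were the rarest members. Mx2 had 25 and 38 counts in Scr and 8 and 0 counts in the knockdown, where a count of 0 allows up to 0.113 CPM, or 3 counts. Its log2 difference of -2.72 ± 1.42 (SE, n = 2 each) therefore rests on few reads, and DESeq2 gave it no adjusted p. Leaving out single libraries gave values from -7.94 to -1.74. Mx1 had 39 and 22 counts in Scr and 15 and 98 counts in the knockdown, so its miR-99 KD libraries held both the lowest and the highest value. The limit set by a count of 0 covers counting error only, because PCR copies without molecular identifiers are not independent molecules. Several laboratory mouse strains are known to carry defective Mx genes, and the strain is not given here.

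The guanylate-binding proteins and immunity-related GTPases attack the membranes around intracellular microbes. Gbp3 stood at 31.5 and 34.2 CPM in Scr and at 27.3 and 24.6 CPM in the knockdown, a log2 difference of -0.34 ± 0.18 (SE, n = 2 each). Gbp2 stood at 39.3 and 33.5 CPM in Scr and at 15.2 and 32.4 CPM in the knockdown. It was low in miR-99 KD 1 alone, and its log2 difference moved from -0.62 to -0.17 without that library and to -1.26 without miR-99 KD 2. Irgm1, a regulator of the other immunity-related GTPases that is known to limit stem cell loss under interferon, was abundant and overlapped, at 98.8 and 93.2 CPM in Scr and 97.0 and 116 CPM in the knockdown. Igtp overlapped as well, between 41.8 and 49.6 CPM, and 8.01% of its exonic bases are shared with Irgm2, where reads cannot be assigned to either gene.

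Of the p200 proteins, which bind DNA, Ifi203 stood at 58.1 and 63.0 CPM in Scr and at 36.8 and 49.6 CPM in the knockdown. The log2 difference was -0.49 ± 0.20 (SE, n = 2 each), with an edgeR adjusted p of 0.335. Ifi204 overlapped, at 4.48 and 3.26 CPM in Scr and at 6.97 and 2.41 CPM in the knockdown. This family has many similar genes in a cluster, so reads may be set aside in counting. Zbp1, a sensor of Z-form nucleic acids that can trigger cell death, stood at 9.03 CPM in Scr 1 and between 3.54 and 4.63 CPM in the other libraries.

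**Figure D3:**
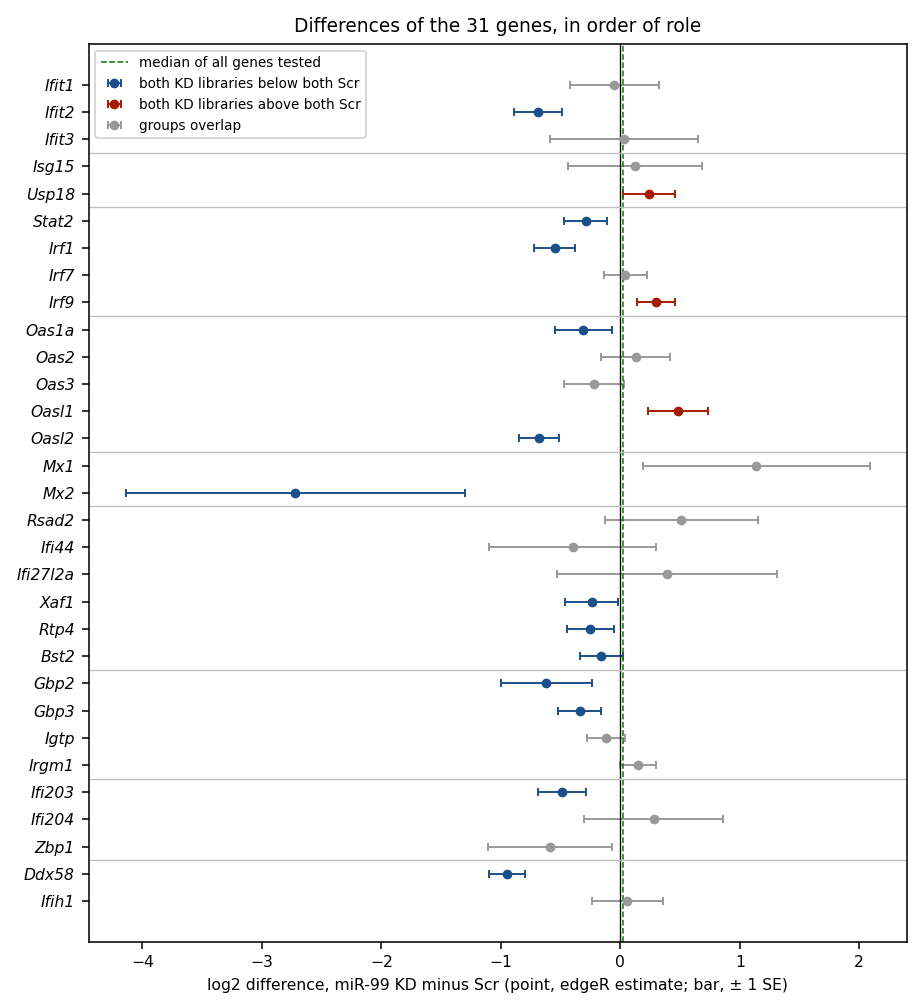
Log2 difference between miR-99 KD and Scr for each of the 31 genes (point, edgeR estimate; bar, 1 SE to each side), in order of role, coloured by whether the libraries of the groups overlap. The 13 genes with both miR-99 KD libraries below both Scr libraries and the 3 with both above are coloured, and the bars are longest for Mx2 and Mx1.

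The other interferon-induced proteins held small differences and large within-group gaps. Xaf1, a pro-apoptotic antagonist of XIAP, stood at 14.3 and 13.2 CPM in Scr and at 11.4 and 11.8 CPM in the knockdown. Bst2, the tetherin that holds budding virus at the cell surface, stood at 27.7 and 25.6 CPM and at 23.95 and 23.8 CPM. Rtp4, with 13.9% of its exonic bases shared with Gm45338, stood at 26.7 and 23.4 CPM and at 19.8 and 22.3 CPM. In these 3 genes the groups did not overlap, but the log2 differences, from -0.25 to -0.16, had SEs from 0.18 to 0.22, and the edgeR adjusted p ran from 0.562 to 0.691.

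Rsad2, which encodes viperin, an enzyme that makes a chain-terminating nucleotide, was highest in the library numbered 1 of each group. It stood at 82.5 CPM in Scr 1 and 123 CPM in miR-99 KD 1, and at 32.3 CPM in Scr 2 and 41.3 CPM in miR-99 KD 2. The library numbered 1 was higher than the library numbered 2 by 2.55 times in Scr and 2.98 times in miR-99 KD, and the log2 difference between the groups was 0.51 ± 0.64 (SE, n = 2 each). Isg15, Ifi204 and Ifi27l2a had the same order, with ratios of 1.43, 1.37 and 1.25 in Scr and of 2.96, 2.89 and 6.66 in the knockdown. The summed macrophage and monocyte, neutrophil and B cell markers were also higher in the libraries numbered 1 in both groups, and their part in these 4 genes was not tested. Ifit2, Oas3, Irf7 and Bst2 were also higher in the library numbered 1 in both groups, by ratios of at most 1.14 in Scr and 1.33 in the knockdown. Over the 31 genes, the library numbered 1 was the higher for 23 in Scr but for 12 in the knockdown, where the library numbered 2 was the higher for 19. Of all genes, 50.7% were higher in the library numbered 1 in Scr and 47.1% in the knockdown. Numbers follow the titles; totals pasted below the gene rows carry the number 2 for Scr 1 and miR-99 KD 1 and the number 1 for miR-99 KD 2. The labels do not say that a number marks a shared day or batch.

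Ifi44 stood at 19.4 and 14.7 CPM in Scr, 21.4 CPM in miR-99 KD 2 and 4.47 CPM in miR-99 KD 1. It shared with Gbp2, Ifit1 and Ifih1 a lowest value in miR-99 KD 1, the library with the highest neutrophil and B cell markers. The 10 B cell markers, all detected, summed to 319 CPM there and to between 42.4 and 93.4 CPM in the other libraries. All 10 were highest in miR-99 KD 1, but the list also differed by group, with a median log2 difference of 1.84. For 5 markers the groups did not overlap and the knockdown was the higher, against 24.5% of all genes, and 5 overlapped. DESeq2 called 3 higher, Ebf1, Vpreb1 and Igll1, against 1.96% of all genes, and edgeR called 0. The part of the neutrophil and B cell markers in the interferon genes was not tested. Of the 31 genes, miR-99 KD 1 held the lowest value of 12 and miR-99 KD 2 of 10, while Scr 2 held that of 7 and Scr 1 of 2. Among all genes the shares were 24.6%, 29.9%, 25.8% and 19.7%. Within miR-99 KD 7 of the 31 genes, or 22.6%, differed by more than 2-fold between the libraries, against 11.3% of all genes, and within Scr 3 did, or 9.68%, against 5.64%.

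**Figure D4:**
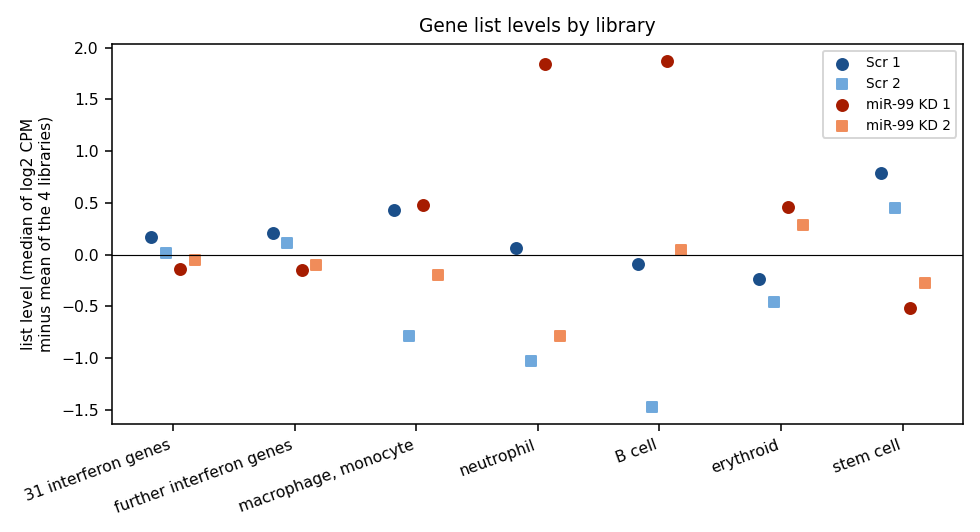
Level of gene lists in each library, as the median over the list of log2 CPM minus its mean over the 4 libraries, for the 31 genes, further interferon-induced genes and markers of 5 cell types. The 31 genes lie between -0.14 and 0.17, in a far narrower range than the neutrophil markers, which lie between -1.03 and 1.84.

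Per kilobase of exon, which allows levels to be compared between genes, the most abundant members were Bst2 at 27.98 CPM per kb, Igtp at 22.3, Irf9 at 19.5, Irgm1 at 17.4 and Irf1 at 17.4, as means over the 4 libraries. Bst2 lay at the 83.0 percentile of genes tested by this level and Mx2, the least abundant at 0.163 CPM per kb, at the 6.77 percentile. Ddx58 at 6.42 and Ifih1 at 4.92 CPM per kb were near the middle. Irgm1 and Irf1 have the same mean level to 3 digits. By this level Irf1 was the higher in both Scr libraries and Irgm1 the higher in both miR-99 KD libraries.

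The interferons themselves were almost unread. Of 10 interferon genes listed, 5 had 0 counts in all libraries and none passed the filter on low counts. The highest value was 6 counts, of Ifnb1 in miR-99 KD 1, and Ifnb1 had 0, 1 and 0 counts in Scr 1, Scr 2 and miR-99 KD 2. All 9 receptors and kinases listed were tested and 0 had an unadjusted edgeR p under 0.05 in either direction, against 15.6% of all genes. The groups overlapped in 7 of the 9, where 50.5% of all genes did not overlap. Among these receptors and kinases, the 4 with the smallest p were Tyk2, Ifngr2, Ifnar1 and Jak1. Tyk2, a kinase of the type I receptor, stood at 37.0 and 47.8 CPM in Scr and at 36.7 and 27.3 CPM in the knockdown, and Ifnar1 at 80.8 and 103 CPM and at 85.3 and 72.1 CPM. Ifngr2, a chain of the interferon gamma receptor, stood at 47.6 and 43.4 CPM and at 66.8 and 48.6 CPM, and Jak1 at 531 and 547 CPM and at 456 and 534 CPM.

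Genes of nucleic acid sensing were called in both directions by DESeq2. Of 15 listed, 14 were tested, and edgeR counted 4 lower and 1 higher at an unadjusted p under 0.05, with 0 called after adjustment; of all genes 9.63% were lower and 5.97% higher. DESeq2 called 2 lower, Aim2 and Tmem173, and 1 higher, Mavs, against 4.89% and 1.96% of all genes. Mavs (ENSMUSG00000037523), the mitochondrial adaptor on which RIG-I and MDA5 signal, stood at 61.5 and 53.5 CPM in Scr and at 91.7 and 95.1 CPM in the knockdown. This gave a log2 difference of 0.70 ± 0.15 (SE, n = 2 each), with adjusted p = 0.0047 by DESeq2 and 0.215 by edgeR. So the gene of the adaptor was higher in the libraries in which the gene of the sensor RIG-I was lower.

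Tmem173, which encodes STING, the adaptor of DNA sensing, stood at 61.9 and 68.7 CPM in Scr and at 44.8 and 42.3 CPM in the knockdown, with adjusted p = 0.040 by DESeq2 and 0.232 by edgeR. Cgas, which makes the messenger that activates STING, was between 43.7 and 48.5 CPM in all libraries. Aim2, an inflammasome sensor of DNA, stood at 28.4 and 27.3 CPM in Scr and at 14.4 and 17.6 CPM in the knockdown, with adjusted p = 0.035 by DESeq2 and 0.231 by edgeR. Ikbke, a kinase that activates Irf3, stood at 20.8 and 22.9 CPM and at 14.7 and 11.8 CPM, and neither tool called it. Dhx58, which encodes LGP2, the third RIG-I-like protein, stood at 24.1 and 22.5 CPM and at 16.1 and 9.30 CPM. It is named after its values were seen, as the remaining gene lower at an unadjusted p under 0.05, and neither tool called it.

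Among 7 genes that handle RNA or clear nucleic acids, 6 were tested, and edgeR counted 1 lower and 0 higher at an unadjusted p under 0.05. The count of 1 in 6 is near the 15.6% of all genes in either direction. That gene was Adar, the editing enzyme that keeps the cell's own RNA from activating MDA5. Adar stood at 51.3 and 60.6 CPM in Scr and at 36.0 and 29.9 CPM in the knockdown, a log2 difference of -0.76 ± 0.19 (SE, n = 2 each), with adjusted p = 0.024 by DESeq2 and 0.227 by edgeR. Eif2ak2, the kinase PKR that halts translation on binding double-stranded RNA, overlapped, at 49.2 and 46.4 CPM in Scr and at 33.4 and 55.2 CPM in the knockdown. Rnaseh2c, between 55.5 and 80.2 CPM, and Rnaseh2b, between 79.4 and 101 CPM, which are subunits of an enzyme that removes RNA from DNA, overlapped.

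Of 9 inhibitors, with Usp18 among them, all were tested, and edgeR counted 2 lower and 0 higher at an unadjusted p under 0.05, against 9.63% and 5.97% of all genes. Irf2, which competes with Irf1 for the same promoter elements, stood at 87.7 and 85 CPM in Scr and at 56.9 and 53.2 CPM in the knockdown. The fitted log2 difference was -0.65 ± 0.14 (SE, n = 2 each), with adjusted p = 0.0067 by DESeq2 and 0.219 by edgeR. Irf1 and Irf2 were thus both lower in both miR-99 KD libraries. Socs3, an inhibitor of cytokine receptors, stood at 20.6 and 24.1 CPM in Scr and at 13.6 and 7.12 CPM in the knockdown, and neither tool called it. Nlrc5, the activator of MHC class I genes, was low in miR-99 KD 1, at 16.3 CPM against 34.4 in miR-99 KD 2 and 44.3 and 47.3 in Scr. Ptpn6, a phosphatase of Jak kinases, stood at 169 CPM in miR-99 KD 2 and between 267 and 277 CPM in the other libraries.

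**Figure D5:**
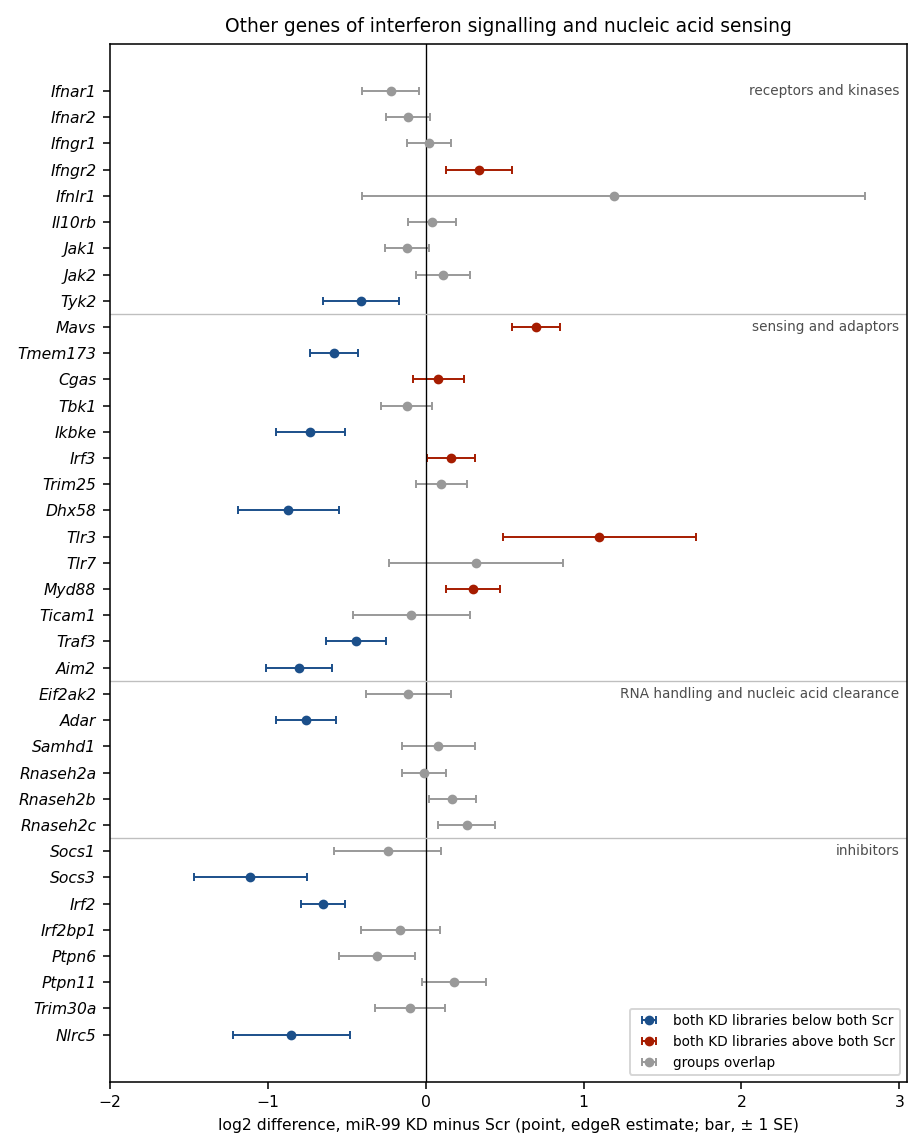
Log2 difference between miR-99 KD and Scr (point, edgeR estimate; bar, 1 SE to each side) for the 37 tested genes of 4 lists outside the 31, coloured by whether the libraries of the groups overlap. Mavs lies above 0, at 0.70, and Tmem173, Ikbke, Dhx58, Aim2, Adar, Socs3 and Irf2 lie below 0, between -1.11 and -0.58.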

How the data were processed

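RNA of sorted cells was sequenced in 4 libraries, 2 per group, after SMARTer amplification, per the labels' protocols. The authors deposited unnormalised counts for each Ensembl gene, separately for each library. The submitters' processing notes name STAR, Picard, HTSeq, DESeq2 and build mm9; versions, annotation and strand setting were not given in the sources used here, so reads of overlapping antisense genes cannot be told apart. Lines below the gene rows (uncounted read classes, totals) were left out; 1 pasted total, 29793890, carries a Scr name and matches none of the 4 libraries, and the pasted names number libraries differently from the titles, which were followed.

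Symbols matched 44585 of 45232 rows (GENCODE M21, on a later build, used for names, exonic lengths and untranslated regions of at least 50 bases). edgeR 4.0.16 (R 4.3.3) ran filterByExpr, TMM and the quasi-likelihood test without a block, two-sided, with Benjamini-Hochberg adjustment at 0.05; SEs come from that fit. DESeq2 1.42.0, limma-voom (limma 3.58.1), other scalings and filters, a replicate block and leaving out each library were alternatives. Scripts were tested on simulated data. With 2 against 2 libraries an exact two-sided permutation test cannot go below 0.333. The members and lists were chosen with earlier results of these data known. Genes named by rule are all members and, of each pathway list and the further list, the 4 with the smallest edgeR p; Cgas, Dhx58 and the cell type markers named were chosen after their values were seen. A result that this rule and the lists ask for is not reported here.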

Additional observations from a re-analysis of the deposited data

How the results depend on the processing

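The edgeR count of members called, 0 over all libraries, was 1 without a filter (Ddx58; 1064 of all genes), 2 with DESeq2 (887 of all genes), and 0 to 2 leaving out each library. The pair called without miR-99 KD 1 was Ddx58 and Ifit2 (1013 of all genes), and without miR-99 KD 2 it was Gbp2 and Ifi44 (437 of all genes). A lone library is thereby taken to have the spread of the other group. Members at an unadjusted p under 0.05 numbered 7 without a filter. The share of all genes at that cutoff was not counted in this fit or in the fit with the replicate block. These counts are therefore not read as a result about the members. DESeq2, in fits added after seeing the data, called 1 member with the replicate block (Ddx58; 390 of all genes) and 0 to 3 without each library. These were 0 without Scr 1 and without Scr 2 (131 and 27 of all genes), and 3 without either knockdown library (1506 and 840). Members lower without overlap numbered 14 to 19 and members higher 4 to 9 without each library, where fewer libraries make overlap rarer; library totals gave 1 higher. The median was -0.25 with library totals, against -0.07 over all genes in that fit. It was -0.26 over the 24 members at 10 CPM, where fewer genes are tested, against 0.02 over all genes. Without each library it ran from -0.26 to -0.08, and that of all genes from -0.05 to 0.03. Ifit3 was -0.06 with library totals and -0.01 with upper quartile scaling, Irf7 -0.05 and Ifih1 -0.03 with library totals, Isg15 -0.07 and Ifi27l2a -0.17 with limma-voom, and -0.05 and -0.11 with the replicate block. Without each library these ranged widely and crossed 0: Ifi204 -0.69 to 0.85, Ifi27l2a -1.54 to 1.19, Ifi44 -1.93 to 0.32, Ifih1 -0.39 to 0.41, Ifit1 -0.59 to 0.34, Ifit3 -0.56 to 1.0, Irf7 -0.04 to 0.11, Isg15 -0.87 to 0.70, Mx1 -0.75 to 1.93, Oas2 -0.14 to 0.35, Rsad2 -0.48 to 1.32 and Zbp1 -1.13 to 0.21. The cause of other changes was not tested. Deviations of libraries with the same number had a correlation of 0.057, and the numbers were read as names only; with the replicate block edgeR called 0 members, 4 had an unadjusted p under 0.05 and the median was -0.16.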

Other observations

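A further 37 interferon-induced genes outside the 31 and the lists above were all tested. Both miR-99 KD libraries lay below both Scr libraries in 18 of them and above in 3, where the shares of all genes were 26.0% and 24.5%. Their median log2 difference was -0.25. edgeR's quasi-likelihood test called 0 after adjustment and counted 7 lower and 1 higher at an unadjusted p under 0.05, against 9.63% and 5.97% of all genes. DESeq2 called 2 lower and 1 higher, against 4.89% and 1.96% of all genes. The list was chosen with earlier results of these data known and is not independent evidence.

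The lowest edgeR p among them was that of Ddx60, a helicase related to the RIG-I-like receptors, at 21.5 and 24.3 CPM in Scr and 10.2 and 11.7 CPM in the knockdown, with adjusted p = 0.0059 by DESeq2 and 0.213 by edgeR. The immunity-related GTPase Ifi47 had 174 and 159 CPM in Scr against 107 and 113 CPM in the knockdown, with adjusted p = 0.0053 by DESeq2 and 0.220 by edgeR. Tor3a, an interferon-induced ATPase, had 66.0 and 62.5 CPM and at 47.6 and 46.0 CPM, and neither tool called it. Cmpk2, a nucleotide kinase that lies beside Rsad2 in the genome, was higher in both miR-99 KD libraries, at 111 and 123 CPM against 85.5 and 75.1 in Scr, with adjusted p = 0.036 by DESeq2 and 0.232 by edgeR. Cmpk2 did not share the gap between libraries numbered 1 and 2 that its neighbour Rsad2 showed.

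The 9 plasmacytoid dendritic cell markers include Bst2, one of the 31 genes, and summed to between 104 and 140 CPM, most of it Bst2 and Tcf4. Tcf4, also expressed in other cells, had 67.3 to 108 CPM. Of the 7 tested, 2 lay lower in both miR-99 KD libraries (Bst2 and Tcf4), 3 lay higher (Spib, Ccr9 and Pacsin1) and 2 overlapped. Of all genes tested, 26.0% lay lower and 24.5% higher in this sense. The median log2 difference of the 7 was 1.10. Spib had 4.24 and 1.10 CPM in Scr and 12.6 and 4.29 CPM in the knockdown, while Ccr9 and Pacsin1 were no higher than 1.54 CPM in any library. Ly6d, which overlapped, had 4.45 and 3.23 CPM in Scr and 12.6 and 3.88 CPM in the knockdown. Siglech, which defines these cells, was between 0 and 1.24 CPM.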
